A study of Mus musculus with 10 samples.

Results

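Gene expression was compared between 2 mouse tumor lines of invasive lobular carcinoma (ILC), 10-SJK-221 and 13-MCB-17, in 4 of the 10 RNA sequencing libraries of the study. The 4 libraries were taken by their labels: each line contributed 1 library of tumor cells grown alone and 1 of tumor cells grown with normal fibroblasts (NFs). Both lines carry the genotype WapCre;Cdh1F/F with a further floxed allele, so that Cre under the Wap promoter, which is active in milk-producing mammary epithelium, removes E-cadherin. In co-culture the gels also held CD26- and CD26+ NFs from mouse mammary gland, and the tumor cells were separated from them by sorting on color after 7 days. Whether a line was grown from 1 clone or 1 mouse was not given in the sources used here. Tumor libraries held 15717569 to 18408940 counts, and a count of 0 allowed a level of up to 0.163 to 0.191 CPM (counts scaled to a common library total). Such limits cover counting error only, since the reads carried no molecular identifiers.

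ILC cells lose E-cadherin, the receptor that joins epithelial cells to each other through catenins, and grow as loosely attached single cells. Their contacts then rest on other junction proteins and on integrins, which bind matrix proteins such as collagens and laminins. Matrix composition, secreted ligands of the Wnt, BMP and IGF pathways and lineage transcription factors differ between mammary epithelial states and can differ between tumors that arose from the same engineered alleles.

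The labels as epithelial tumor cells were checked first. Levels are given throughout for tumor cells alone first and for co-culture second. Epcam, an epithelial surface protein, had 432 and 335 CPM in 13-MCB-17 and 409 and 358 CPM in 10-SJK-221, and Krt18, a luminal keratin, had 981 and 1172 CPM against 1392 and 1468 CPM. Vim, an intermediate filament protein common in mesenchymal cells, had 1195 and 2065 CPM against 1297 and 2594 CPM. None of these 3 genes differed between the lines past the threshold (adjusted p = 0.739, 0.123 and 0.528). Cdh1, which encodes E-cadherin, had 239 and 144 CPM against 269 and 139.9 CPM, which sums all exons and so says nothing on the deletion. All 10 epithelial markers examined exceeded 3 counts in every tumor library, with a summed level of 4233 to 5577 CPM. The 10 fibroblast markers differed in how far the co-cultured tumor cells stood below the NFs of the same gel (13-MCB-17 in gel 4, 10-SJK-221 in gel 5). Dcn, Lum and Thy1 were low, at 0 to 0.0615% of the mean NF level. Pdgfrb stood at 0.171% and 0.0965%, Fbn1 at 0.152% and 0.187%, Col3a1 at 0.416% and 0.183%, Postn at 0.942% and 0.525%, and Pdgfra, which tumor cells alone also had at 67.7 and 35.6 CPM, at 8.94% and 9.92%. Pdgfrb was at 0 and Postn at 0.163 and 0.573 CPM in tumor cells alone. Col1a1 had 3.10 and 89.1 CPM in 13-MCB-17 and 1.78 and 28.1 CPM in 10-SJK-221 against 11113 and 11648 CPM in the NFs of gels 4 and 5. For matrix genes of co-cultured tumor cells the part of NF RNA in the level was not tested, and the gels of tumor cells alone held no NFs.

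Of 12793 autosomal genes tested, 1859 (14.5%) differed between the lines over both cultures at an adjusted p under 0.05 (these are the called genes), 751 (5.87%) higher and 1108 (8.66%) lower in 10-SJK-221. The median log2 fold change of all tested autosomal genes was 0.0025, and that of called genes was 0.82 in absolute size. Throughout, a log2 fold change is 10-SJK-221 over 13-MCB-17 with its standard error (SE), from edgeR's quasi-likelihood test with culture as a term and n = 2 libraries per line. The calls rest on the culture term: without it edgeR called 0 autosomal genes, with 1252 at an unadjusted p under 0.05. In fits over all 10 libraries of which 1 tumor library was left out, 387 to 512 autosomal genes were called, and the statements on left-out libraries for single genes refer to these 4 fits. Each of them compares 1 library per line in the culture that is left complete, so leaving out either line of a culture gives nearly the same fit (387 and 394 genes called without a library of tumor cells alone, 511 and 512 without a co-culture library). Their spread comes from the NF libraries of gels 4 and 5 and is assumed to hold for tumor cells. Among the called genes 1852 had the same sign in both cultures and 7 had opposite signs. A difference of at least 1 log2 unit in the same direction in each culture was reached by 470 called genes (3.67% of those tested), 202 higher (1.58%) and 268 lower (2.09%) in 10-SJK-221. The difference within a culture was computed on TMM-scaled CPM with 0.5 CPM added, so it understates the change of low genes. With 1 gel per line and culture, the line and the gel cannot be told apart within a culture.

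**Figure D1:**
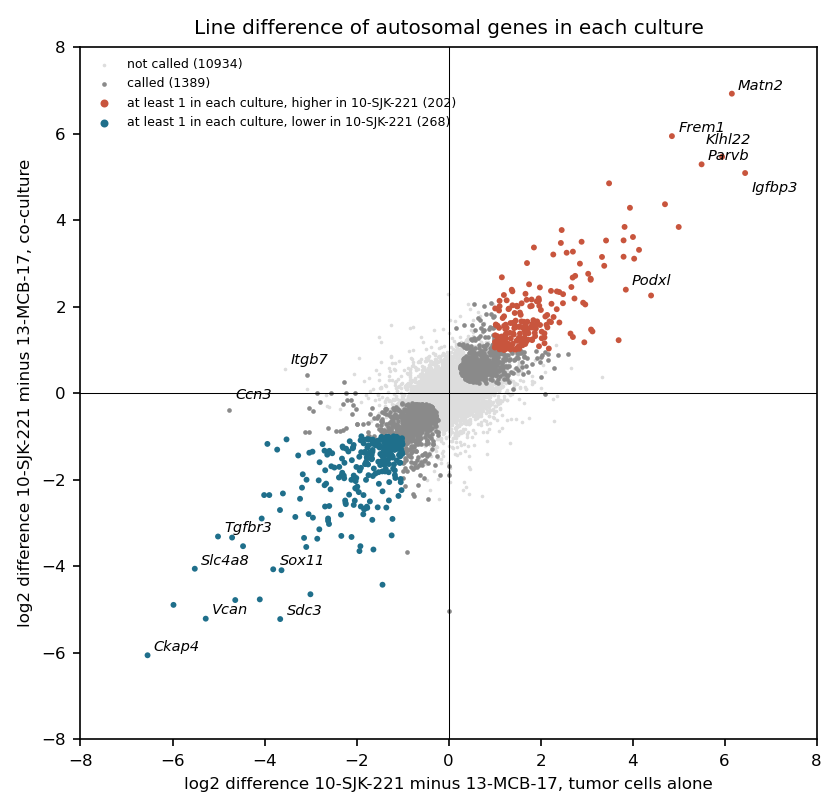
Each point is 1 of 12793 autosomal genes, with the log2 difference between the lines in tumor cells alone on the x axis and in co-culture on the y axis (log2 of TMM-scaled CPM plus 0.5). The 202 and 268 colored genes lie at least 1 unit from 0 in both cultures, and Matn2 and Ckap4 lie near its opposite ends.

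The largest differences were genes read in 1 line and close to absent in the other. Matn2 (ENSMUSG00000022324, chromosome 15, 34306677 to 34436273), which encodes the matrix adaptor matrilin-2, had 0.489 and 0.566 CPM in 13-MCB-17 and 73.0 and 133 CPM in 10-SJK-221 (log2 fold change 7.50 ± 0.19, adjusted p = 4.34e-07). Parvb (ENSMUSG00000022438, chromosome 15, 84232043 to 84315688), whose product β-parvin links integrin-linked kinase to actin at focal adhesions, had 1.58 and 1.07 CPM in 13-MCB-17 and 98.3 and 63.4 CPM in 10-SJK-221 (log2 fold change 5.84 ± 0.16, adjusted p = 5.62e-07). Klhl22, an adaptor of a cullin ubiquitin ligase, had 0.0543 and 0.339 CPM in 13-MCB-17 and 34.5 and 37.8 CPM in 10-SJK-221 (log2 fold change 7.42 ± 0.34, adjusted p = 1.46e-05). Ank, a membrane protein that exports pyrophosphate, had 0.272 and 0.113 CPM against 11.8 and 11.8 CPM (5.80 ± 0.37), and Cwh43, which remodels lipid anchors, had 3 and 1 counts in 13-MCB-17 and 219 and 39 counts in 10-SJK-221. In these genes both libraries of 10-SJK-221 stood far above both of 13-MCB-17, and the order of the lines was the same in either culture.

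In the other direction, Ckap4 (ENSMUSG00000046841, chromosome 10, 84526305 to 84534062), an endoplasmic reticulum membrane protein that also acts as a surface receptor, had 83.3 and 87.2 CPM in 13-MCB-17 and 0.445 and 0.856 CPM in 10-SJK-221 (log2 fold change -7.08 ± 0.20, adjusted p = 7.39e-07). Vcan (ENSMUSG00000021614, chromosome 13, 89655312 to 89742509), the large chondroitin sulfate proteoglycan versican, had 137 and 199 CPM in 13-MCB-17 and 3.24 and 5.08 CPM in 10-SJK-221 (log2 fold change -5.41 ± 0.13, adjusted p = 4.03e-07). Pdzrn3, a ubiquitin ligase, had 63.8 and 37.0 CPM in 13-MCB-17 and 0.573 and 0.799 CPM in 10-SJK-221 (log2 fold change -6.20 ± 0.27, adjusted p = 1.1e-05). These genes were well read in 13-MCB-17 and close to the counting limit in 10-SJK-221, Vcan excepted, which kept a low level there. Cyba, which encodes the p22phox subunit of NADPH oxidase, had 11.5 and 20.6 CPM against 0 and 0.285 CPM (log2 fold change -6.79 ± 0.43, adjusted p = 7.01e-05). Of 10 leukocyte markers, Cd68 had 299 and 80.5 CPM against 93.1 and 34.8 CPM (log2 fold change -1.53 ± 0.13, adjusted p = 0.000309), while Ptprc, Lyz2 and Adgre1 were at or under 0.127 CPM in every tumor library and Tyrobp was at 0. Cd68 lost its call without either library of tumor cells alone. Decr1, a mitochondrial enzyme of fatty acid oxidation, and Dapk1, a death-associated kinase, had log2 fold changes of -6.40 ± 0.34 and -4.78 ± 0.45. Adora1, an adenosine receptor, had 15.9 and 2.04 CPM against 0.573 and 0 CPM (-5.09 ± 0.44). Tgif2, a homeobox repressor, was lower too (log2 fold change -5.38 ± 0.34, adjusted p = 7.04e-05), although 61.6% of its exonic length overlaps another gene, so that its counts are uncertain. Matn2, Parvb, Klhl22, Ank, Ckap4, Vcan, Pdzrn3, Cyba, Decr1, Dapk1, Adora1 and Tgif2 were called whichever tumor library was left out, and Cwh43 unless the library of 10-SJK-221 alone was.

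**Figure D2:**
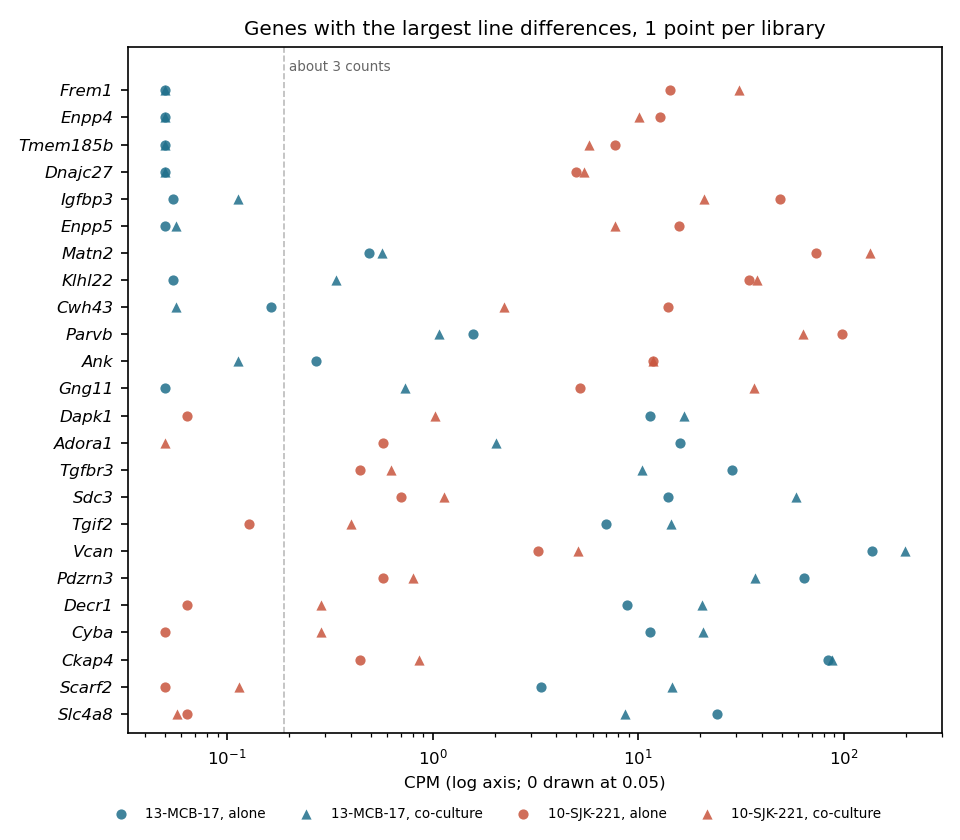
Level of the 12 genes highest and the 12 lowest in 10-SJK-221, in CPM on a log axis, with 1 point per library. Circles are tumor cells alone and triangles are co-culture. In each gene both libraries of a line lie on the same side, and 4 genes (Frem1, Enpp4, Tmem185b and Dnajc27) had 0 counts in both 13-MCB-17 libraries.

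A set of 44 called autosomal genes had at most 3 counts in both libraries of 1 line, more than 3 in both of the other, and a mean of at least 1 CPM there. This rule was chosen after the values were seen. Of these, 25 were read in 10-SJK-221 and 19 in 13-MCB-17. Frem1, a basement membrane protein of the Fraser complex, had 0 and 0 counts in 13-MCB-17 and 224 and 545 counts in 10-SJK-221, at least 136-fold higher in 10-SJK-221 when a floor of 3 counts per library was used. Enpp4 (0 and 0 counts in 13-MCB-17 and 201 and 177 counts in 10-SJK-221) and its chromosomal neighbor Enpp5 (0 and 1 counts in 13-MCB-17 and 249 and 135 counts in 10-SJK-221) belong to the ectonucleotide pyrophosphatase family. For Enpp4 the difference was at least 68.8-fold, and for Enpp5 the ratio was 417 with a 95% counting interval of 74.4 to 16505.

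Igfbp3, which encodes a binding protein that holds insulin-like growth factors in the extracellular space, had 1 and 2 counts in 13-MCB-17 and 770 and 368 counts in 10-SJK-221, a ratio of 412 (141 to 1999.5). Tmem185b and Dnajc27 were at 0 counts in 13-MCB-17 and at least 40.5-fold and 31.2-fold higher in 10-SJK-221. Peg13, an imprinted noncoding RNA, had 0 and 1 counts in 13-MCB-17 and 50 and 71 counts in 10-SJK-221, a ratio of 131 (23.1 to 5229.9). These genes were thus read in both cultures of 10-SJK-221 and near 0 in both cultures of 13-MCB-17.

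Among the genes read in 13-MCB-17 only, Sox12, a transcription factor of the SoxC group, had 64 and 52 counts in 13-MCB-17 and 0 and 0 counts in 10-SJK-221 and was at least 17.7-fold lower in 10-SJK-221. Slc4a8, a sodium-driven bicarbonate exchanger, had 446 and 153 counts in 13-MCB-17 and 1 and 1 counts in 10-SJK-221, a ratio of 276 (76.1 to 2284) of 13-MCB-17 over 10-SJK-221. Scarf2, a scavenger receptor, had 62 and 259 counts in 13-MCB-17 and 0 and 2 counts in 10-SJK-221, a ratio of 148 (40.6 to 1226). Of the 44 genes, 31 were at 1 CPM or more in the co-cultured NFs of both gels, so most were measurable in other libraries of the study.

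Across 28 lists of adhesion, matrix, cytoskeleton, transcription factor, signaling, growth and secretory genes, 588 different autosomal genes were tested and 178 were called (30.3%, against 14.5% of all autosomal genes), 71 higher and 107 lower in 10-SJK-221. The difference reached 1 log2 unit in each culture in 51 (8.67%, against 3.67%). The median log2 fold change of the 588 genes was -0.038, beside 0.0025 for all tested autosomal genes. With 1 tumor library left out, 49 to 79 list genes were called. Since the lists were chosen with earlier results of these data known, these shares are descriptions.

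**Figure D3:**
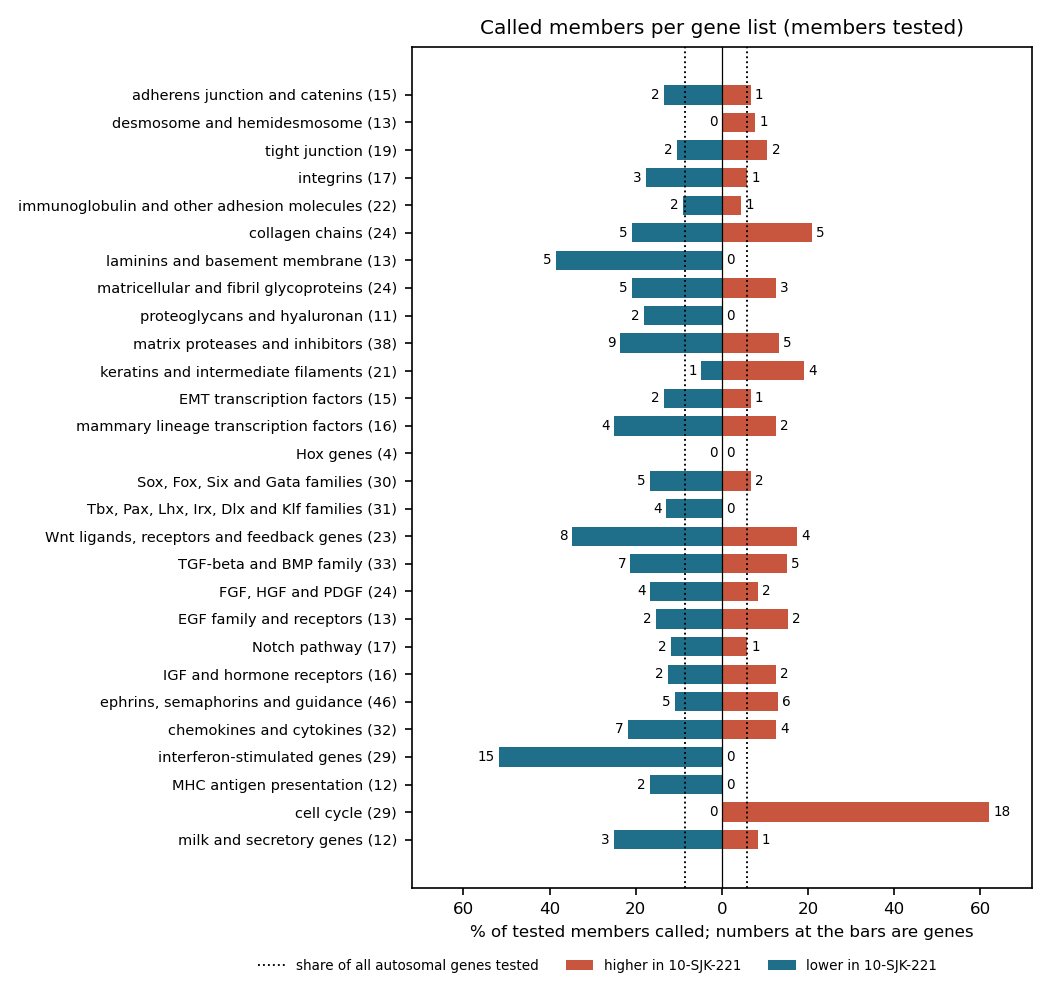
Share of the tested members of each list that were called higher (right) or lower (left) in 10-SJK-221, in percent, with the number of genes at each bar and the number tested in brackets. Dotted lines mark the shares of all tested autosomal genes, 5.87% and 8.66%. The bars of interferon-stimulated genes (15 lower) and cell cycle genes (18 higher) extend farthest from them.

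Cell-cell adhesion genes were called at shares near those of all autosomal genes. Over the lists of adherens junctions, desmosomes, tight junctions and immunoglobulin-type adhesion molecules, 4.55% to 10.5% of members were higher and 0 to 13.3% lower, beside 5.87% and 8.66% of all autosomal genes. Of 15 adherens junction genes, 1 was higher and 2 were lower. Nectin4, a nectin of epithelial junctions, had 17.6 and 29.7 CPM in 13-MCB-17 and 6.36 and 11.4 CPM in 10-SJK-221 (log2 fold change -1.50 ± 0.16, adjusted p = 0.000725), with a difference of -1.48 alone and -1.41 in co-culture. Nectin1 was lower by less (-0.80 ± 0.11), and Cdh2, which encodes N-cadherin, was higher (log2 fold change 0.46 ± 0.12, adjusted p = 0.0337). The catenin genes Ctnnb1 and Ctnna1 had log2 fold changes of -0.11 ± 0.12 and 0.17 ± 0.12 and did not pass the test. Of 13 desmosome and hemidesmosome genes only Plec, the linker protein plectin, was called (log2 fold change 0.57 ± 0.14, adjusted p = 0.0287). Dsp, the desmosomal plaque protein, had 0.10 ± 0.12 and was not called.

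Of 19 tight junction genes 2 were higher and 2 lower. Jam2, a junctional adhesion molecule, was low in every library and differed in both cultures, with 0.109 and 0.226 CPM in 13-MCB-17 and 1.21 and 1.88 CPM in 10-SJK-221 (log2 fold change 3.09 ± 0.56, adjusted p = 0.00864). Marveld2 was also higher (0.64 ± 0.17), while Cgn, the junction adaptor cingulin, and Cldn4, an epithelial claudin, were lower (-0.57 ± 0.10 and -0.42 ± 0.11). Among 22 immunoglobulin-type and other adhesion molecules, Podxl, a sialomucin that keeps membranes apart, had 2.66 and 4.58 CPM in 13-MCB-17 and 47.7 and 27.3 CPM in 10-SJK-221 (log2 fold change 3.26 ± 0.32, adjusted p = 0.000552). Mcam and Bcam, both immunoglobulin-type receptors, were lower (-1.15 ± 0.22 and -0.79 ± 0.19). Podxl and Jam2 were called with any tumor library left out, and Nectin4, Nectin1, Cdh2, Plec, Marveld2, Cgn, Cldn4 and Mcam in none of the 4 such fits. The call of Bcam was lost without either co-culture library.

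Of 17 integrins 1 was higher and 3 lower (5.88% and 17.6%, beside 5.87% and 8.66% of all autosomal genes). Itga8, the partner of Itgb1 in a receptor for matrix proteins with an RGD sequence, was higher in both cultures, with 3.37 and 5.37 CPM in 13-MCB-17 and 12.3 and 14.4 CPM in 10-SJK-221 (log2 fold change 1.56 ± 0.21, adjusted p = 0.00219). Itga7, a laminin receptor subunit, Itgb3, a vitronectin receptor subunit, and Itga5, the fibronectin receptor subunit, were lower by less than 1 log2 unit (-0.61 ± 0.16, -0.58 ± 0.13 and -0.48 ± 0.13). The widely used subunit Itgb1 had 867 and 1119 CPM against 876 and 1217 CPM and a log2 fold change of -0.0062 ± 0.13, which did not pass the test. Itga8 lost its call without the library of 10-SJK-221 alone, and Itga7, Itgb3 and Itga5 in all 4 fits.

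Matrix genes differed in both directions and included several of the largest changes. Of 24 collagen chains 5 were higher and 5 lower (20.8% higher and 20.8% lower, beside 5.87% and 8.66% of all autosomal genes, list median 0.055). Col5a1, a chain of the fibril-nucleating collagen V, had 379.8 and 473 CPM in 13-MCB-17 and 137 and 229 CPM in 10-SJK-221 (log2 fold change -1.33 ± 0.13, adjusted p = 0.000597) and was lower in both cultures. Col6a3 and Col11a2 were higher in both cultures, with 1.63 and 0.961 CPM against 4.33 and 5.59 CPM (log2 fold change 1.86 ± 0.36, adjusted p = 0.012) and 4.13 and 7.86 CPM against 11.6 and 17.3 CPM (log2 fold change 1.22 ± 0.19, adjusted p = 0.00439). Col27a1, a cartilage collagen, was higher from low levels (1.94 ± 0.37), and Col7a1, the anchoring fibril chain, and Col3a1, a fibril chain of fibroblasts, were lower (-0.67 ± 0.15 and -0.84 ± 0.22). Col1a1 and Col1a2, the 2 chains of collagen I, differed in opposite directions (-1.51 ± 0.20 and 1.91 ± 0.31). Their levels in tumor cells alone were low (3.10 and 1.78 CPM for Col1a1, 0.272 and 0.891 CPM for Col1a2). In co-culture Col1a2 had 3.17 and 13.1 CPM (0.0461% and 0.164% of the NF level in gels 4 and 5), and the part of NF RNA in these levels was not tested. The NFs had 1574 and 2599 CPM of Col6a3. Col6a3, Col27a1, Col1a1 and Col1a2 lost their calls without either co-culture library, Col3a1 and Col7a1 in all 4 fits, and Col5a1 and Col11a2 without either library of tumor cells alone.

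Of 13 basement membrane genes 5 were lower and 0 higher (0% higher and 38.5% lower, beside 5.87% and 8.66% of all autosomal genes, list median -0.33). Lamc1, Lama5 and Lamb2, chains of widespread epithelial and vascular laminins, had log2 fold changes of -0.54 ± 0.12, -0.46 ± 0.13 and -0.44 ± 0.10. Lama5 had 1863 and 1385 CPM in 13-MCB-17 and 1393 and 1080.0 CPM in 10-SJK-221. Col4a2, a chain of the collagen IV network, was lower too (log2 fold change -0.63 ± 0.13, adjusted p = 0.0131). Lama3, a laminin chain found under epithelial hemidesmosomes, had 0.069 ± 0.14 and was not called. Lama4 was called (-2.55 ± 0.53) on 0.217 and 4.81 CPM against 0 and 0.913 CPM, levels near the counting limit in tumor cells alone, and lost its call without either co-culture library. Lamc1, Lama5, Lamb2 and Col4a2 lost their calls in all 4 fits with a library left out.

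Among 24 matricellular and fibril glycoproteins 3 were higher and 5 lower (12.5% higher and 20.8% lower, beside 5.87% and 8.66% of all autosomal genes, list median -0.10). Beside Matn2, Sparc, a collagen-binding glycoprotein, differed in both cultures in the other direction, with 1520.4 and 2145 CPM in 13-MCB-17 and 696 and 795 CPM in 10-SJK-221 (log2 fold change -1.35 ± 0.14, adjusted p = 0.000625). Thbs1, thrombospondin 1, was higher (log2 fold change 0.81 ± 0.19, adjusted p = 0.0269) with a difference of 1.19 alone and 0.43 in co-culture. Ccn3, a growth-regulating matricellular protein, had 71.5 and 0.509 CPM in 13-MCB-17 and 2.29 and 0.285 CPM in 10-SJK-221, so that the lines were apart in tumor cells alone and both were near 0 in co-culture (log2 fold change -4.68 ± 0.51). Mgp, matrix Gla protein, and Tnxb, tenascin X, were also lower (-1.50 ± 0.31 and -1.25 ± 0.33), and Efemp2, a fibulin, was higher (0.37 ± 0.10). Sparc lost its call without the co-culture library of 13-MCB-17, and Thbs1, Ccn3 and Tnxb without either library of tumor cells alone.

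Proteoglycan and hyaluronan genes had 2 of 11 lower and 0 higher (0% higher and 18.2% lower, beside 5.87% and 8.66% of all autosomal genes, list median -0.17). These were Vcan and the cell surface proteoglycan Sdc3, which had 13.9 and 58.8 CPM in 13-MCB-17 and 0.700 and 1.14 CPM in 10-SJK-221 (log2 fold change -5.28 ± 0.29, adjusted p = 3.77e-05). Igfbp7, an IGF-binding protein of vascular matrix, had 12.4 and 81.2 CPM against 2.67 and 7.99 CPM (log2 fold change -3.00 ± 0.25, adjusted p = 0.000241). NFs of gels 4 and 5 had 1137 and 1429.6 CPM of Igfbp7, and the part of NF RNA in the co-culture levels was not tested.

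Of 38 matrix proteases and inhibitors 5 were higher and 9 lower (13.2% higher and 23.7% lower, beside 5.87% and 8.66% of all autosomal genes, list median -0.15). Mmp14, the membrane-bound collagenase MT1-MMP, had 374 and 529.7 CPM in 13-MCB-17 and 141 and 174 CPM in 10-SJK-221 (log2 fold change -1.58 ± 0.11, adjusted p = 0.000112). Ctsb, the lysosomal protease cathepsin B, had 1230.0 and 1106 CPM in 13-MCB-17 and 389.7 and 434 CPM in 10-SJK-221 (log2 fold change -1.58 ± 0.14, adjusted p = 0.000284). Both genes lie on distal chromosome 14, where 174 of 249 tested genes were lower in 10-SJK-221. Mmp10, stromelysin 2, lies on chromosome 9 and was lower as well (137 and 46.7 CPM against 29.4 and 20 CPM, log2 fold change -1.82 ± 0.21, adjusted p = 0.00108).

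The lysyl oxidases Loxl4 and Loxl3, which cross-link collagen, were higher, with 47.2 and 9.90 CPM against 128 and 32.8 CPM (log2 fold change 1.49 ± 0.12, adjusted p = 0.000205) and 0.217 and 21.1 CPM against 9.10 and 52.1 CPM (log2 fold change 2.05 ± 0.51, adjusted p = 0.0333). Serpinb2, an inhibitor of plasminogen activators, had 15.5 and 7.64 CPM against 33.7 and 18.7 CPM (log2 fold change 1.12 ± 0.15, adjusted p = 0.00241). Adamts15, a versican-cleaving protease, was low in both lines and higher in 10-SJK-221 (0.0543 and 0.226 CPM against 1.08 and 1.03 CPM). Mmp12, macrophage elastase, was lower on 2.93 and 2.60 CPM against 1.02 and 1.31 CPM (-1.32 ± 0.36). Mmp14, Ctsb, Loxl4, Serpinb2, Sdc3 and Igfbp7 were called with any tumor library left out. Mmp10, Loxl3 and Adamts15 lost their calls without either library of tumor cells alone, and Mgp, Efemp2 and Mmp12 in all 4 fits.

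The transcription factors Sox11 and Sox12 were lower in 10-SJK-221 in both cultures. Sox11, which is expressed in embryonic progenitors, had 57.5 and 129 CPM in 13-MCB-17 and 3.88 and 7.53 CPM in 10-SJK-221 (log2 fold change -4.08 ± 0.13, adjusted p = 1.42e-06), and Sox12 of the same group had 0 counts in both 10-SJK-221 libraries. Sox4, the remaining member of this group, had 203 and 310.3 CPM against 202 and 366 CPM (0.039 ± 0.11) and was not called. Foxf1, a forkhead factor of mesenchyme, had 23.2 and 9.56 CPM in 13-MCB-17 and 3.37 and 3.65 CPM in 10-SJK-221 (log2 fold change -2.17 ± 0.32, adjusted p = 0.00311). Sox9, a factor of mammary progenitors, and Foxm1, a driver of mitotic genes, were higher by less than 1 unit (0.63 ± 0.12 and 0.60 ± 0.10). Gata2, a zinc finger factor, was lower on 0.815 and 2.55 CPM against 0.382 and 0.342 CPM (-2.19 ± 0.56). In all, 2 of 30 Sox, Fox, Gata and sine oculis homeobox genes were higher and 5 lower (6.67% higher and 16.7% lower, beside 5.87% and 8.66% of all autosomal genes, list median -0.015).

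Of 16 mammary lineage factors 2 were higher and 4 lower (12.5% higher and 25% lower, beside 5.87% and 8.66% of all autosomal genes, list median -0.16). Ehf, an Ets factor of epithelia, had 12 and 7.86 CPM in 13-MCB-17 and 4.90 and 2.28 CPM in 10-SJK-221 (log2 fold change -1.59 ± 0.23, adjusted p = 0.00312), and Id4, an inhibitor of differentiation found in basal cells, had 2.82 and 2.55 CPM against 8.59 and 5.82 CPM (log2 fold change 1.33 ± 0.25, adjusted p = 0.0104). Runx2, Tfap2a and Xbp1 were lower by less than 1 unit (-0.59 ± 0.10, -0.43 ± 0.11 and -0.41 ± 0.10). Among 15 factors of the epithelial to mesenchymal transition 1 was higher and 2 lower (6.67% higher and 13.3% lower, list median -0.019). These shares were near the 5.87% and 8.66% of all autosomal genes. Zeb2 and Snai1, repressors of epithelial genes, were lower (log2 fold change -0.75 ± 0.17, adjusted p = 0.0209 and log2 fold change -0.69 ± 0.10, adjusted p = 0.0031). Grhl2, an activator of epithelial genes, was higher (log2 fold change 0.58 ± 0.12, adjusted p = 0.0155). Zeb1, Twist1 and Ovol1 were not called (-0.071 ± 0.22, 0.38 ± 0.12 and -0.057 ± 0.10).

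Of 31 Tbx, Pax, Lhx, Irx, Dlx and Klf genes 4 were lower and 0 higher (0% higher and 12.9% lower, beside 5.87% and 8.66% of all autosomal genes, list median 0.03), and these 4 were Klf12, Klf9, Klf13 and Klf7 (-1.41 ± 0.14, -1.14 ± 0.11, -0.69 ± 0.10 and -0.60 ± 0.11). Klf12 lies on distal chromosome 14. Of 39 Hox genes 4 passed the filter on low counts and none was called (0 with an unadjusted p under 0.05). Sox11 and Sox12 were called with any tumor library left out, whereas Ehf, Snai1, Grhl2, Sox9, Foxm1, Runx2, Tfap2a, Xbp1, Klf13 and Klf7 were called in none of these 4 fits. Foxf1, Id4, Zeb2, Klf12 and Klf9 lost their calls without either library of tumor cells alone, and Gata2 without either co-culture library.

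Wnt genes had 12 of 23 tested members called, 4 higher and 8 lower (17.4% higher and 34.8% lower, beside 5.87% and 8.66% of all autosomal genes, list median -0.07). Wnt10a, a ligand of skin and mammary development, had 26.5 and 29.6 CPM in 13-MCB-17 and 2.74 and 2.57 CPM in 10-SJK-221 (log2 fold change -3.47 ± 0.19, adjusted p = 3.36e-05), and the NFs had 1.44 and 0.670 CPM. Wnt11, a noncanonical ligand, had 1.36 and 6.05 CPM in 13-MCB-17 and 0.0636 and 0.570 CPM in 10-SJK-221 (log2 fold change -3.62 ± 0.46, adjusted p = 0.00161). The receptor Fzd7 had 50.8 and 47.3 CPM in 13-MCB-17 and 14.1 and 14.5 CPM in 10-SJK-221 (log2 fold change -1.85 ± 0.13, adjusted p = 0.000106). Wnt10a, Wnt11 and Fzd7 were lower in 10-SJK-221 in both cultures, Wnt11 from low levels. The NFs of gels 4 and 5 had 47.3 and 45.6 CPM of Wnt11 and 69.6 and 58.2 CPM of Fzd7. The part of NF RNA in the co-culture levels of these genes was not tested. Notum, a secreted esterase that inactivates Wnt ligands, was lower too (12.6 and 3.00 CPM against 1.02 and 0.285 CPM, log2 fold change -3.62 ± 0.32, adjusted p = 0.000352), with 38.1% of its exonic length shared with another gene. Apcdd1, a membrane inhibitor of Wnt signaling, went the other way, with 0.272 and 1.70 CPM in 13-MCB-17 and 7.83 and 17.1 CPM in 10-SJK-221 (log2 fold change 3.69 ± 0.33, adjusted p = 0.000378). Tcf7, Fzd4 and the coreceptor Lrp5 were higher (1.80 ± 0.41, 0.74 ± 0.15 and 0.54 ± 0.14). Wnt10a, Wnt11, Fzd7, Notum and Apcdd1 were called with any tumor library left out, and Tcf7, Fzd4 and Lrp5 in none of these fits.

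In the TGF-β and BMP family 5 of 33 were higher and 7 lower (15.2% higher and 21.2% lower, beside 5.87% and 8.66% of all autosomal genes, list median 0.0011). Tgfbr3, the coreceptor betaglycan that presents TGF-β and inhibin, had 28.5 and 10.4 CPM in 13-MCB-17 and 0.445 and 0.627 CPM in 10-SJK-221 (log2 fold change -5.11 ± 0.38, adjusted p = 0.000136). The ligand Bmp7 had 83.2 and 149 CPM in 13-MCB-17 and 20.8 and 25.5 CPM in 10-SJK-221 (log2 fold change -2.36 ± 0.14, adjusted p = 6.13e-05), and Chrd, the secreted BMP antagonist chordin, had 3.86 and 2.55 CPM against 0.254 and 0.741 CPM (log2 fold change -2.70 ± 0.52, adjusted p = 0.0108). In the opposite direction, Bmp4 was low in both lines and higher in 10-SJK-221, with 1.3 and 0.566 CPM in 13-MCB-17 and 4.45 and 3.99 CPM in 10-SJK-221 (log2 fold change 2.13 ± 0.38, adjusted p = 0.00799). Fstl3, a secreted inhibitor of activins, had 0.706 and 2.15 CPM against 6.17 and 13.4 CPM (log2 fold change 2.75 ± 0.27, adjusted p = 0.000551), and Inhbb, an activin subunit, had 12.4 and 32.4 CPM against 28.2 and 65.3 CPM (log2 fold change 1.02 ± 0.12, adjusted p = 0.00137). Ltbp4, a latent TGF-β binding protein, was higher as well (0.98 ± 0.26). Of the exonic length of Fstl3 47.3% overlaps another gene. Bmp1, a protease that cleaves chordin and procollagens (-1.26 ± 0.12), lies on distal chromosome 14. Tgfbr3, Bmp7 and Fstl3 were called with any library left out, Bmp4 in 1 of the 4 fits (without 13-MCB-17 alone). Chrd and Inhbb lost their calls without either library of tumor cells alone, and Bmp1 and Ltbp4 without either co-culture library.

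IGF pathway and hormone receptor genes had 2 of 16 higher and 2 lower (12.5% higher and 12.5% lower, beside 5.87% and 8.66% of all autosomal genes, list median -0.072). Besides Igfbp3, Irs1, the adaptor of insulin and IGF receptors, was higher in both cultures, with 9.56 and 8.20 CPM in 13-MCB-17 and 27.6 and 27.4 CPM in 10-SJK-221 (log2 fold change 1.56 ± 0.16, adjusted p = 0.000615). Lower were Igfbp7 and Igf2r, a receptor that clears IGF2 (-0.58 ± 0.11).

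Of 24 FGF, HGF and PDGF genes 2 were higher and 4 lower (8.33% higher and 16.7% lower, beside 5.87% and 8.66% of all autosomal genes, list median -0.14). Vegfc, the lymphatic growth factor, had 36.6 and 46.3 CPM in 13-MCB-17 and 11.3 and 20.6 CPM in 10-SJK-221 (log2 fold change -1.49 ± 0.16, adjusted p = 0.000848). The feedback inhibitors Spry1 and Dusp6 were higher (1.4 ± 0.28 and 0.52 ± 0.10), while Spry2, on distal chromosome 14, was lower (-0.88 ± 0.16), as were Pdgfra and Pdgfa (-0.64 ± 0.17 and -0.37 ± 0.10). Of 13 EGF family members and receptors 2 were higher and 2 lower (15.4% higher and 15.4% lower, beside 5.87% and 8.66% of all autosomal genes, list median 0.10). The ligands Tgfa and Btc were higher (0.66 ± 0.11 and 1.37 ± 0.39) and the ligands Epgn and Nrg1 lower (-2.21 ± 0.61 and -0.38 ± 0.11). Of 17 Notch pathway genes 1 was higher and 2 lower (5.88% higher and 11.8% lower, list median -0.036), shares near those of all autosomal genes. Hey2, a target gene repressor, differed in both cultures with 1.90 and 2.09 CPM against 6.3 and 7.13 CPM (log2 fold change 1.67 ± 0.26, adjusted p = 0.00429). Dll4 and Dtx4 were lower (-0.99 ± 0.27 and -0.49 ± 0.11). The receptors Egfr, Erbb2, Notch1 and Notch2 were not called (-0.45 ± 0.13, -0.065 ± 0.10, -0.22 ± 0.10 and -0.036 ± 0.12). Irs1 and Vegfc were called with any library left out, and Hey2, Tgfa, Epgn, Nrg1, Dll4, Dtx4, Dusp6, Pdgfra, Pdgfa and Igf2r in none of these fits. Spry1 and Spry2 lost their calls without either library of tumor cells alone, and Btc without either co-culture library.

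Ephrin, semaphorin and other guidance genes had 6 of 46 higher and 5 lower (13.0% higher and 10.9% lower, beside 5.87% and 8.66% of all autosomal genes, list median -0.003). Sema5a had 3 and 2 counts in 13-MCB-17 and 80 and 66 counts in 10-SJK-221, a ratio of 31.7 (13.3 to 99.1), and Plxna4, a plexin receptor, had 22.5 and 26.1 CPM against 48.9 and 59.3 CPM (log2 fold change 1.08 ± 0.11, adjusted p = 0.000725). Sema3b, a secreted semaphorin, had 10.1 and 15.5 CPM in 13-MCB-17 and 2.29 and 3.76 CPM in 10-SJK-221 (log2 fold change -2.16 ± 0.21, adjusted p = 0.000535), and Sema6c was lower as well (log2 fold change -1.82 ± 0.27, adjusted p = 0.00366). Slit2, a repellent ligand, and Ephb6, an ephrin receptor, were lower (-0.97 ± 0.18 and -2.83 ± 0.47), and Sema6a and Epha7 were higher (0.87 ± 0.11 and 2.07 ± 0.52). Sema3b and Sema6c were lower in 10-SJK-221 in each culture, and Sema6c and Ephb6 lost their calls without either co-culture library, Slit2 without either library of tumor cells alone, and Sema6a and Epha7 in all 4 fits.

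Of 32 chemokines and cytokines 4 were higher and 7 lower (12.5% higher and 21.9% lower, beside 5.87% and 8.66% of all autosomal genes, list median -0.14). Ccl9, a chemokine for myeloid cells, had 0.815 and 3.96 CPM in 13-MCB-17 and 4.71 and 13.6 CPM in 10-SJK-221 (log2 fold change 1.97 ± 0.27, adjusted p = 0.00254). Il1r1, the signaling receptor of interleukin 1, had 10.8 and 15.2 CPM in 13-MCB-17 and 4.01 and 5.42 CPM in 10-SJK-221 (log2 fold change -1.53 ± 0.19, adjusted p = 0.00161). Csf3, which encodes the granulocyte growth factor G-CSF, had 392 and 141 CPM against 215 and 76.1 CPM (log2 fold change -0.95 ± 0.10, adjusted p = 0.000775). Csf1, the macrophage growth factor, was higher, as were Cx3cl1 and Il18 (0.60 ± 0.10, 0.64 ± 0.11 and 0.72 ± 0.20), and Il11 and Ccl20 were lower (-0.76 ± 0.10 and -1.35 ± 0.34). Ccl9, Il1r1, Sema5a, Plxna4 and Sema3b were called with any library left out, and Csf3, Csf1, Cx3cl1, Il18, Il11 and Ccl20 in none of these fits.

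Interferon-stimulated genes, which cells switch on against viruses, were lower in 10-SJK-221 in many members, with the larger differences in tumor cells alone. Of 29 tested, 15 were lower and 0 higher (0% higher and 51.7% lower, beside 5.87% and 8.66% of all autosomal genes, list median -1.04). In tumor cells alone 28 of 29 had a negative difference (median -1.50), and in co-culture 21 of 29 did (median -0.25). Oasl1, a relative of the oligoadenylate synthetases, had 12.2 and 2.04 CPM in 13-MCB-17 and 0.891 and 0.456 CPM in 10-SJK-221 (log2 fold change -3.29 ± 0.42, adjusted p = 0.00172). Rsad2, the antiviral enzyme viperin, had 21.9 and 1.24 CPM in 13-MCB-17 and 2.23 and 0.456 CPM in 10-SJK-221 (log2 fold change -2.96 ± 0.39, adjusted p = 0.0021). Rtp4, a receptor chaperone, and Ifi44 had 7.82 and 0.339 CPM against 0.573 and 0.171 CPM (-3.29 ± 0.59) and 28.0 and 4.69 CPM against 1.46 and 1.88 CPM (-2.97 ± 0.56). Irf7, the regulator of the interferon response, had 41.0 and 10.3 CPM against 6.62 and 5.93 CPM (-1.85 ± 0.37).

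Among these 29 genes a difference of 1 log2 unit in each culture was reached by Oasl1 and Ifi44. Ifih1, an RNA sensor, had 0.95 ± 0.33 and was not called. In a fit of the line by culture interaction, whose spread comes from the same NF libraries, no gene of the list passed (0 of 30 with an adjusted p under 0.05), 15 of 30 had an unadjusted p under 0.05, and over all genes 3 of 17048 (0.0176%) passed and 467 had an unadjusted p under 0.05. Without either library of tumor cells alone 0 list genes were called lower in the fit over the remaining libraries, and without either co-culture library 14 were. The antigen presentation list had 2 of 12 lower and 0 higher (0% higher and 16.7% lower, beside 5.87% and 8.66% of all autosomal genes, list median -0.27), namely the immunoproteasome subunits Psmb8 (3.75 and 9.56 CPM against 0.445 and 1.25 CPM, log2 fold change -3.04 ± 0.31, adjusted p = 0.000641) and Psmb10 (-0.81 ± 0.16). Psmb8 was called with any library left out and Psmb10 in none of these fits.

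Promoters of this list were searched for GAAANNGAAA on both strands, a core of the interferon-stimulated response element (matches may overlap each other). At least 1 match was in 13 of 21 list members with a RefSeq promoter entry (61.9%), in 8 of the 13 called lower and in 5 of the 8 not called, beside 3.99% of all 27025 genes with an entry and 3.53% of the 9529 autosomal genes tested. Since the list was made of interferon-stimulated genes, its high share of this motif says nothing on the line difference. The windows of Oasl1, Ifi44 and Irf7 hold none. The windows of 4 genes are printed to show where the motif lies, with its matches in capitals, for genes of the list that were lower in 10-SJK-221 and hold it, taken from RefSeq on GRCm38.p6 (250 bases before to 50 after the start).
Rsad2 (chr12:26456403-26456702, minus strand): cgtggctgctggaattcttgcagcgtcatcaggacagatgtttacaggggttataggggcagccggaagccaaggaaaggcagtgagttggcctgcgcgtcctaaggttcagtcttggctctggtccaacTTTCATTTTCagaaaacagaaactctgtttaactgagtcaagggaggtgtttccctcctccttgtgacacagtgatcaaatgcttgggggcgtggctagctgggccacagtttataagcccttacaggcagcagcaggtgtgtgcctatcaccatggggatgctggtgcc
Ifit1 (chr19:34640639-34640938, plus strand): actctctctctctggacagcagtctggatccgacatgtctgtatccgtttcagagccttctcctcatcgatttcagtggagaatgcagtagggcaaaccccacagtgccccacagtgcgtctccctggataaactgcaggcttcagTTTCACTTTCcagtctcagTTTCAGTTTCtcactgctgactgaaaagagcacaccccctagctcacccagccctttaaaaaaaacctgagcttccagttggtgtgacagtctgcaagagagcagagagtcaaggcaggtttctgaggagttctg
Isg15 (chr4:156200769-156201068, minus strand): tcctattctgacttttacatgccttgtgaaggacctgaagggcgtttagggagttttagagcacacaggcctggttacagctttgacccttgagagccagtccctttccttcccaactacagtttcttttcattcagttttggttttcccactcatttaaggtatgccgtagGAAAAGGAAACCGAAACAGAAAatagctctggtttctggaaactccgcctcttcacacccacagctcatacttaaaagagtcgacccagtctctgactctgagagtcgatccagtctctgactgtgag
Bst2 (chr8:71537423-71537722, minus strand): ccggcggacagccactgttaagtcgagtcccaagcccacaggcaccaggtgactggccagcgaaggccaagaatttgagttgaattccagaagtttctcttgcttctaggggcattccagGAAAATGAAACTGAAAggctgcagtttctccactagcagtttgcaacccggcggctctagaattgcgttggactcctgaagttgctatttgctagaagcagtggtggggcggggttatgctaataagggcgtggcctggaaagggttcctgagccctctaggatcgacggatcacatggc
Rsad2 and Ifit1 hold the motif on the opposite strand and Isg15 and Bst2 on the strand shown. Ifit1, an antiviral RNA-binding protein, had 14.6 and 0.0566 CPM against 2.80 and 0.171 CPM (-2.21 ± 0.48), Isg15, a ubiquitin-like modifier, had 18.1 and 5.66 CPM against 7.13 and 4.05 CPM (-1.04 ± 0.25), and Bst2, the virus tether tetherin, had 97.3 and 73.1 CPM against 30.3 and 47.3 CPM (-1.22 ± 0.22). A match describes the letters of a window and does not show binding.

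**Figure D4:**
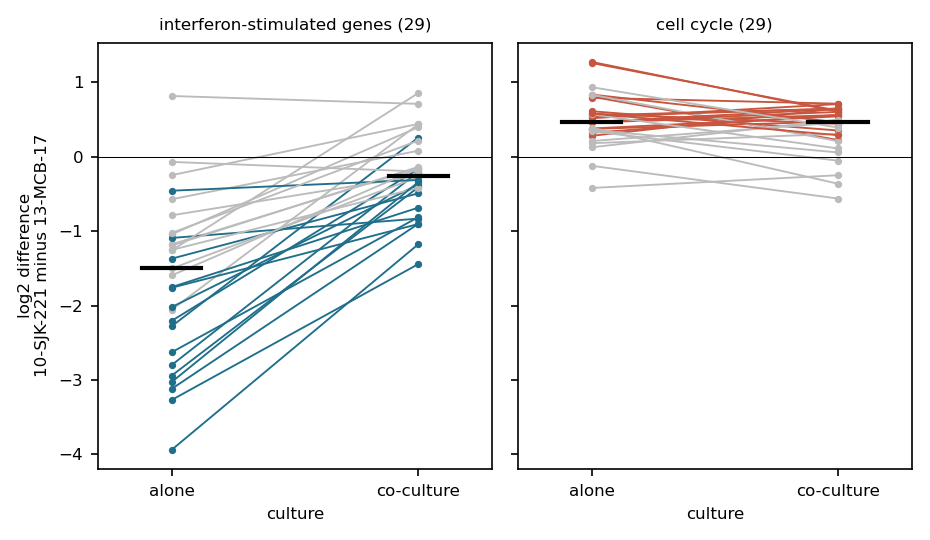
Log2 difference between the lines for each tested member of the interferon-stimulated (left) and cell cycle (right) lists, with tumor cells alone and co-culture joined by a line. Colored lines are called genes and black bars are medians, which moved from -1.50 to -0.25 for interferon-stimulated genes and from 0.47 to 0.46 for cell cycle genes.

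Cell cycle genes included many small differences over both cultures. Of 29 tested, 18 were higher and 0 lower (62.1% higher and 0% lower, beside 5.87% and 8.66% of all autosomal genes, list median 0.48), and none reached 1 log2 unit in each culture. The difference was below 0 for 2 of 29 in tumor cells alone and for 4 in co-culture. Mcm3 and Mcm6, subunits of the replicative helicase, had 31.5 and 46.2 CPM against 81.7 and 73.5 CPM (log2 fold change 0.94 ± 0.16, adjusted p = 0.00561) and 39.1 and 69.1 CPM against 100.1 and 111 CPM (log2 fold change 0.94 ± 0.15, adjusted p = 0.0048). Mki67, which encodes the proliferation marker Ki-67, had 134 and 90.9 CPM in 13-MCB-17 and 205 and 155 CPM in 10-SJK-221 (log2 fold change 0.61 ± 0.10, adjusted p = 0.00625). Mcm4, a further helicase subunit, and Ccna2, a cyclin of S and G2 phase, had 0.65 ± 0.12 and 0.76 ± 0.10, and the cyclins Ccnd1 and Ccne1 and the inhibitor Cdkn1a were not called (0.31 ± 0.13, 0.15 ± 0.16 and -0.34 ± 0.12). Mcm3 lost its call without either library of tumor cells alone, and Mcm4, Mcm6, Mki67 and Ccna2 in all 4 fits. The count of 18 fell to 6 with DESeq2, to 2 in the fit over all 10 libraries and to 0 or 1 with any tumor library left out.

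Of 21 keratins and intermediate filament genes 4 were higher and 1 lower (19.0% higher and 4.76% lower, beside 5.87% and 8.66% of all autosomal genes, list median 0.25). Krt8, the partner of Krt18, had 789 and 1001 CPM in 13-MCB-17 and 1301 and 1438 CPM in 10-SJK-221 (log2 fold change 0.55 ± 0.13, adjusted p = 0.0257), and Krt14, a basal keratin, had 34.1 and 32.7 CPM against 51.0 and 49.6 CPM (0.52 ± 0.11). Krt15 and Krt78 were higher (1.25 ± 0.30 and 0.84 ± 0.13), and Nes, nestin, was lower (-0.44 ± 0.11). Of 12 milk and secretory genes 1 was higher and 3 lower (8.33% higher and 25% lower, beside 5.87% and 8.66% of all autosomal genes, list median -0.14). Slpi, a secreted protease inhibitor, had 1308 and 341 CPM in 13-MCB-17 and 199 and 117 CPM in 10-SJK-221 (log2 fold change -2.21 ± 0.25, adjusted p = 0.000986), and Xdh, an enzyme that also coats milk fat globules, had 826 and 439.7 CPM against 324 and 146 CPM (log2 fold change -1.54 ± 0.12, adjusted p = 0.000168). Clu, the secreted chaperone clusterin, on distal chromosome 14, was lower too (-0.81 ± 0.17). Csn3, κ-casein, was near the counting limit in 13-MCB-17 and low in 10-SJK-221 (0.163 and 0.396 CPM against 0.827 and 2.11 CPM). Xdh was called with any library left out, Slpi without either co-culture library but not without either library of tumor cells alone, and Krt8, Krt14, Krt15, Krt78, Nes, Clu and Csn3 in none.

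Neighboring genes differed together at a few positions. Across autosomes the chromosome median of log2 fold changes lay between -0.055 and 0.051, apart from chromosome 14. On distal chromosome 14, from position 50870324, 174 of 249 tested genes were lower and 4 higher (median -0.94), and 61 of the 268 genes lower in both cultures lie there. Of 633 windows of 20 consecutive tested genes, 16 had a median beyond 0.6 in absolute size, 12 of them on distal chromosome 14. These regions were chosen after the values were seen.

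The start of chromosome 6 was higher in 10-SJK-221. From the first tested gene at 3333194 to the end of Ica1 at 8778488 (GRCm38), 22 of 24 tested genes were higher in 10-SJK-221 and 0 lower, with a median log2 fold change of 1.90. The medians of the differences were 1.62 alone and 1.84 in co-culture, and 20 of the 22 called genes fell between 1.4 and 2.4 on the log2 scale. Sem1, a proteasome subunit, had 148 and 127 CPM in 13-MCB-17 and 539 and 533 CPM in 10-SJK-221 (log2 fold change 1.89 ± 0.12, adjusted p = 6.73e-05). Asns, asparagine synthetase, had 223 and 129 CPM in 13-MCB-17 and 616 and 709.5 CPM in 10-SJK-221 (log2 fold change 1.88 ± 0.22, adjusted p = 0.00104). Pon2, a lactonase of membranes, had 43.3 and 43.9 CPM in 13-MCB-17 and 181 and 205 CPM in 10-SJK-221 (log2 fold change 2.07 ± 0.11, adjusted p = 3e-05). The difference was 1.77 alone and 2.00 in co-culture for Sem1, 1.37 and 2.39 for Asns and 1.96 and 2.15 for Pon2.

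C1galt1, the enzyme that extends O-glycans, Slc25a13, a mitochondrial carrier, and Rpa3, a subunit of the DNA-binding replication protein A, had 2.14 ± 0.18, 1.95 ± 0.12 and 1.94 ± 0.12. Gng11, a G protein γ subunit, exceeded the others with 0 and 0.735 CPM against 5.22 and 36.4 CPM (log2 fold change 5.79 ± 0.37, adjusted p = 7.01e-05), as did Ica1, an islet autoantigen (log2 fold change 3.07 ± 0.22, adjusted p = 0.000114). Ppp1r9a, an actin-binding protein, and the pseudogene Rnps1-ps were exceptions, with -0.63 ± 0.19 and -0.085 ± 0.15, neither called. The next 10 tested genes, from 11900292, had a median of 0.020 and none was called. Col1a2, named above among the collagens, belongs to this stretch, and 20 of its genes are among the 202 higher in both cultures. DNA copy number was not measured in these libraries.

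**Figure D5:**
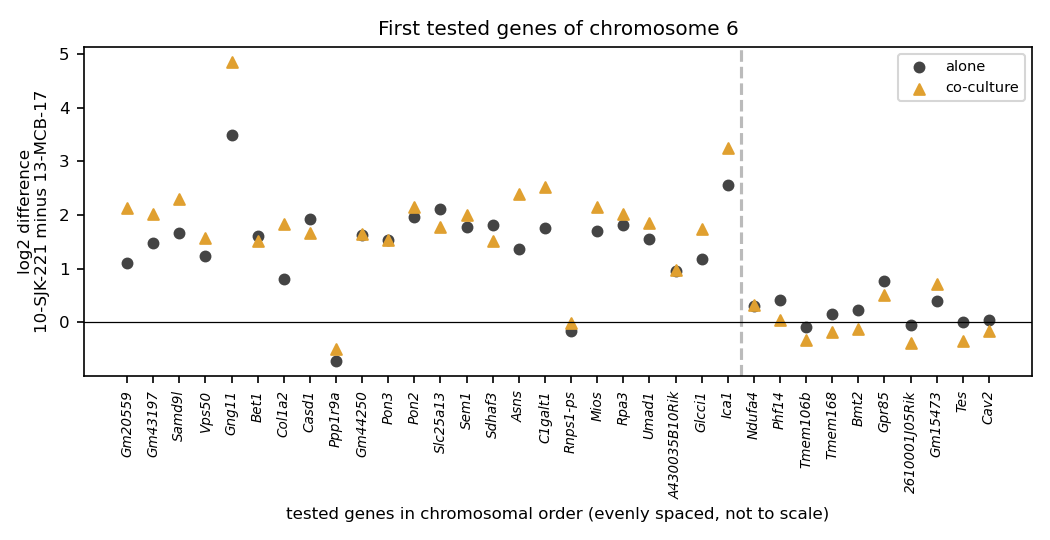
Log2 difference between the lines for the 24 tested genes at the start of chromosome 6 and the 10 that follow, in chromosomal order at even spacing. Circles are tumor cells alone and triangles are co-culture. Left of the dashed line 20 of 24 genes lie at 1 or more in both cultures, and right of it the values scatter around 0.

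Beyond these regions, 2 windows on chromosome 3 (94954075 to 95947390) had medians of -0.70 and -0.63, with 26 of 40 genes lower and 0 higher. These include Sema6c and Ecm1, an extracellular matrix protein (-1.09 ± 0.13), and Mcl1, an inhibitor of apoptosis (-0.45 ± 0.11). Ecm1 lost its call without either library of tumor cells alone and Mcl1 in all 4 fits. A window on chromosome 11 (82781108 to 83905819) had a median of 0.69, with 12 of 20 genes higher, Ccl9 among them. Windows with medians short of 0.6 also held named genes. Xdh lies in a window on chromosome 17 (73870431 to 78851956) with a median of -0.47, 10 of 20 genes lower and 0 higher. Spry1 and Ccna2 lie in a window on chromosome 3 (35892105 to 40816883) with a median of 0.50, 7 of 20 genes higher and 0 lower. Outside distal chromosome 14 and the start of chromosome 6, 386 of the 470 genes that differed in both cultures remained, 179 higher and 207 lower.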

How the data were processed

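Per the labels, poly(A) RNA was made into stranded libraries. The deposited values were raw counts of reads in each gene, which the authors had not normalized. The submitters' processing notes name HISAT2 2.2.1 and GRCm38. Which program counted the reads, whether it used strand, and with which annotation was not given in the sources used here. GENCODE M21 held the IDs of 99.53% of 55486 genes. A line without an ID held 0 counts and was left out. Genes that overlap others, and close paralogs, have uncertain counts.

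A quasi-likelihood model of line plus culture was fitted to the 4 tumor libraries in edgeR 4.0.16 under R 4.3.3, after filterByExpr and TMM scaling, and p-values of 13197 genes were adjusted by the Benjamini-Hochberg method. Culture serves as the block, since the replicate numbers follow it: number 1 is alone and number 2 is co-culture. The fit leaves 1 residual degree of freedom and relies on the spread moderated across genes (biological coefficient of variation 0.111). Nothing says that the libraries of a line came from separate animals. The residual is the change of the line difference between the 2 cultures, from which spread between gels cannot be told apart. No gel was repeated within a line and culture, so p-values do not measure the spread between repeated gels. TMM scaling shifted differences by 0.088 log2 units alone and 0.063 in co-culture relative to plain CPM. Another 51 called genes on other chromosomes are not described. The interaction was fitted over all 10 libraries (2 residual degrees of freedom, both from NF libraries of gels 4 and 5). On simulated data, 78 of 100 genes changed by 1 log2 unit and 98 of 100 changed by 2 were called for the line difference, with 21 false calls among 12783 unchanged genes that passed the filter and 0 called with the wrong sign. The simulated counts took their spread from the same 4 libraries and held no effect of the gel. Changed genes were drawn only from those above a minimum mean count. The simulation therefore says nothing on the confounding of line with gel.

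Named genes were the 12 highest and the 12 lowest autosomal genes that differed in both cultures with at least 5 CPM in the higher line and no clone name, the 4 most changed called members per list and direction, 6 check genes and well-known members that did not pass. Lamb2, Ecm1, Mcl1, Peg13, the genes of the chromosome 6 stretch, and Irf7, Ifit1, Isg15, Bst2, Mki67, Ccnd1, Cd68 and Sox4 were chosen after their values were seen. Members and lists were chosen with earlier results of these data known. Some genes are not reported here. Alternatives were RLE scaling, 2 other filters, DESeq2 1.42.0, no culture term, all 10 libraries, a pseudocount of 2 CPM and leaving out each tumor library.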

Additional observations from a re-analysis of the deposited data

Results flagged for a closer look

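The line difference itself differed between tumor cells alone and co-culture in 3 of 17048 genes, by the interaction term of edgeR's quasi-likelihood fit over 10 libraries. Each line and culture is 1 tumor library, so the spread in this fit comes only from the CD26- and CD26+ NF libraries of gels 4 and 5, which were grown beside different tumor lines, and is assumed to hold for tumor cells. Without a filter on low counts 0 genes passed, so all 3 calls depend on the filter. Itgb7, an integrin subunit of lymphocytes, had 90.3 and 1.24 CPM in 13-MCB-17 and 7.63 and 2.17 CPM in 10-SJK-221, so that 13-MCB-17 was higher alone and the lines were near each other in co-culture (interaction 4.40 ± 0.56 on the log2 scale, adjusted p = 0.0215). Prl2c3, a member of the prolactin family, had 274 and 36.6 CPM in 13-MCB-17 and 101 and 93.9 CPM in 10-SJK-221, with a higher level in 13-MCB-17 alone and in 10-SJK-221 in co-culture (2.84 ± 0.40, adjusted p = 0.0354). Close paralogs of Prl2c3 make its counts uncertain. Crispld2, a secreted protein of fibroblasts and other cells, had 1.09 and 15.2 CPM in 13-MCB-17 and 2.23 and 2.62 CPM in 10-SJK-221 (-3.52 ± 0.52, adjusted p = 0.0465). NFs of gels 4 and 5 had 171 and 169 CPM of Crispld2, and the part of NF RNA in its co-culture level was not tested. Each value rests on 1 gel per line and culture.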

How the results depend on the processing

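With 1 gel per line and culture, the number of libraries limits what these counts can show. Without the pairing by culture (no replicate block) 0 autosomal genes, 0 list genes and 0 genes in both cultures were called. A weaker filter called 2829 genes, 1248 of them higher. Over all 10 libraries 1034 were called (386 higher, 648 lower; 115 list genes). Leaving out each tumor library in turn gave 387 to 512 calls, 121 to 204 higher, 263 to 314 lower, and 49 to 79 list genes, and 48 of 149 named calls held in all 4 fits. DESeq2 called 920 (318 higher, 602 lower; 117 list genes), of which 911 were among the 1859, and 181 (75 higher, 106 lower; 27 list genes) with an absolute log2 fold change over 2. The genes in both cultures then numbered 172 (73 higher, 99 lower), and 267 (98 higher, 169 lower) with a pseudocount of 2 CPM. They numbered 367 to 475 under RLE scaling, both other filters, all 10 libraries and DESeq2. They have no value with a tumor library left out, since a culture then lacks a line. Leaving out distal chromosome 14 and the start of chromosome 6, an alternative chosen after seeing the data, gave 1659 calls. Without a filter the interaction gave 0 calls instead of 3. Of the check genes, Epcam (-0.16 to 0.061 with a library left out) turned to 0.061 and 0.058 without the library of 13-MCB-17 or of 10-SJK-221 alone. Cdh1 turned to 0.018 without the culture term, 0.013 over all 10 libraries, and 0.096 without either co-culture library (-0.074 to 0.096 with a library left out). Neither passed the threshold there. The cause of these shifts was not tested.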
